A study of Mus musculus with 8 samples.

Results

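The genes described here are 10 genes of bone morphogenetic protein (BMP) signalling in MC3T3 cells: Bmp1, Bmp2, Bmp3, Bmp4, Bmp6, Bmp7, Bmpr1a, Bmpr1b, Bmpr2 and Acvr1. They were chosen by gene name, as the rows of the deposited count table that carry those names, and are 10 of the 43346 genes in it. MC3T3 is a line of mouse pre-osteoblasts that can mature and mineralize their matrix in culture. The LLC-CM group (4 libraries) received culture medium with 25% filtered conditioned medium, collected over 48 hours without serum from LLC1, the Lewis lung carcinoma line of mouse. The NCM group (4 libraries) stands here for the vehicle-treated cells: its abbreviation is not explained in the labels, and vehicle is the one other condition they name. Cells of all 8 libraries were kept for 7 days in medium with ascorbic acid at 100 ug/mL and beta-glycerophosphate at 10 mM, which supports mineralization.

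BMPs are secreted, dimeric growth factors of the TGF-beta superfamily. A BMP dimer binds a complex of type I receptors (Bmpr1a, Bmpr1b and Acvr1 among them) and type II receptors (Bmpr2 among them), and the type II kinase activates the type I kinase, which phosphorylates Smad1, Smad5 and Smad9. These join Smad4 and regulate genes in the nucleus, and in bone the pathway promotes osteoblast formation. Bmp1 carries the family's name but is no growth factor of this kind: it is a secreted metalloprotease that trims fibrillar procollagens and cleaves the BMP antagonist chordin.

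Library totals ran from 27264212 to 35573953 assigned reads, and 14991 genes had enough reads to be tested. Nothing in the labels tells whether each replicate was its own culture, and the p-values therefore reflect the spread among these libraries, technical or not. All 9 osteoblast markers examined were detected, with summed levels of 65765 to 77944 CPM (a gene's reads relative to its library's total, scaled with TMM factors) in LLC-CM and 92859 to 118942 CPM in NCM. Most of each sum came from Col1a2, Sparc, Col1a1 and Ibsp. All 9 markers differed between the groups, 1 being higher and 8 lower in LLC-CM. Of all tested genes 18.8% were called higher and 18.1% lower, by the threshold given below. Spp1 was the higher one (log2 fold change 0.78 ± 0.12). The lower ones were Col1a1, Col1a2, Sparc, Ibsp, Runx2, Sp7, Alpl (13.7 CPM in LLC-CM, 62.6 CPM in NCM) and Bglap (1.55 CPM in LLC-CM, 127.9 CPM in NCM). The epithelial and carcinoma markers summed to 1.11 to 2.24 CPM in LLC-CM and 0.318 to 0.708 CPM in NCM over 7 genes, with Epcam, Krt8 and Krt18 at 0 counts and most of the sum from Muc1 (1.46 CPM in LLC-CM, 0.383 CPM in NCM). The chondrocyte markers summed to 73.9 to 97.0 CPM in LLC-CM and 179.8 to 203.7 CPM in NCM over 7 genes, and among them Sox9 was higher in LLC-CM (log2 fold change 0.76 ± 0.07) while Col2a1, Hapln1 and Matn3 were lower. The macrophage markers summed to 18.7 to 32.3 CPM in LLC-CM and 11.6 to 17.4 CPM in NCM over 7 genes, mostly from Lyz2 (20.3 CPM in LLC-CM, 11.5 CPM in NCM). Of the other macrophage markers, Fcer1g was higher in LLC-CM and Cd68 did not pass, Csf1r was at 0.862 CPM in LLC-CM and 1.21 CPM in NCM without passing, Ptprc had 0 counts over LLC-CM and 4 over NCM, Adgre1 had 0 over LLC-CM and 3 over NCM, and Itgam was at 0. The adipocyte markers summed to 17.5 to 24.7 CPM in LLC-CM and 8.12 to 10.2 CPM in NCM over 7 genes. Most of that sum came from Fabp4 (11.3 CPM in LLC-CM, 4.35 CPM in NCM) and Cebpa (8.29 CPM in LLC-CM, 4.68 CPM in NCM). Adipoq, Plin1, Pparg and Lpl had too few reads to be tested, and Cfd was at 0. The endothelial markers summed to 1.52 to 1.67 CPM in LLC-CM and 2.18 to 2.73 CPM in NCM over 6 genes, with Cdh5, Kdr and Tie1 at 0. The part of these shifts in the results below was not tested. In bulk RNA, fewer cells of a type and less RNA per cell cannot be told apart.

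Of the 10 genes, 5 had enough reads to be tested: Bmp1, Bmp4, Bmpr1a, Acvr1 and Bmpr2. LLC-CM cultures had lower Bmp1, Bmp4 and Bmpr2, while Bmpr1a and Acvr1 did not pass the threshold, a Benjamini-Hochberg adjusted p of 0.05 over all genes in edgeR's quasi-likelihood test. These 3 calls among 5 tested members stand beside 36.9% of all tested genes called in either direction, 18.8% called higher and 18.1% called lower. No member was called higher by edgeR, DESeq2 or limma-voom, and 1, Acvr1, had an unadjusted edgeR p under 0.05 in that direction. The median log2 fold change (LLC-CM minus NCM) was -0.28 over the 5 tested members and 0.01 over all tested genes.

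The remaining members were at or near 0. Bmp2, a strong inducer of osteoblast formation, Bmp3, a BMP of bone matrix that opposes the osteogenic ones, Bmp7, a ligand of kidney and skeletal development, and Bmpr1b, a type I receptor of cartilage formation, each had 0 counts in all 8 libraries. A count of 0 allows up to 0.110 CPM in the shallowest library and up to 0.0236 CPM over the LLC-CM libraries and 0.0255 CPM over the NCM libraries, taking 3 counts as the limit, which covers counting error only. Whether these zeros come from the cells or from how reads were assigned to genes was not tested, so the limits apply to counted reads and not to expression. Bmp6, a ligand that also regulates iron balance, had 2, 0, 1 and 0 counts in LLC-CM replicates 1 to 4 and 0 counts in every NCM library, so both groups were at or under the limit and no fold is given. Genes with 0 counts throughout numbered 6534 among the 22032 protein-coding genes of the table. The counted gene model was 3112 bases for Bmp3 and 2410 bases for Bmp6, against 7398 and 3900 exonic bases in GENCODE M21, so reads from the additional exonic sequence are not in these counts. For Bmp2 (3555 bases), Bmp7 (4019 bases) and Bmpr1b (5962 bases) the counted length equalled the exonic length of that annotation.

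Among the growth factors Bmp4 was therefore the member with a measurable level, and LLC-CM cultures had less of it. Bmp4 (ENSMUSG00000021835, chromosome 14, 46383520 to 46390669 in mm10, minus strand) is a ligand of mesoderm and skeletal development that induces osteoblast differentiation. It had 45.5, 50.2, 56.3 and 56.3 CPM in LLC-CM replicates 1 to 4, against 70.3, 78.7, 86.3 and 67.1 CPM in NCM replicates 1 to 4. Every LLC-CM library lay below every NCM library, with replicates 1 and 2 lowest within LLC-CM. Bmp4 averaged 52.1 ± 5.25 CPM in LLC-CM and 75.6 ± 8.66 CPM in NCM (SD, n = 4 each). Its log2 fold change was -0.54 ± 0.09 (SE, edgeR's quasi-likelihood test, adjusted p = 2e-04), or 1.45-fold lower in LLC-CM. Of all tested genes, 19.9% had a larger absolute log2 fold change than Bmp4. Its exons share 89 bases (3.96%) with Gm15217 on the other strand, whose reads these libraries cannot tell apart.

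The bases before the RefSeq start site of Bmp4 are shown because Bmp4 is the only tested ligand among the members. Its level was lower in LLC-CM, and its start site coincides with the end of the counted gene model. The stretch is 250 bases at chr14:46390670-46390919 (GRCm38.p6, minus strand, from RefSeq), given 5′ to 3′ and ending at the base before the start site, with capitals marking a Smad box.
Bmp4 upstream: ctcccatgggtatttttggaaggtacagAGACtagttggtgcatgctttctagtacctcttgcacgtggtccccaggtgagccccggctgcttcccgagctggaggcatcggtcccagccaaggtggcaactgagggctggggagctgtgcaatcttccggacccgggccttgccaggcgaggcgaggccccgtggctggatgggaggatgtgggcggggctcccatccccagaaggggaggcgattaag
Windows of 300 bases, 250 before and 50 after each RefSeq start, were searched on both strands for GGCGCC, a GC-rich element bound by BMP-activated Smads, GTCT, the Smad box, GTCTAGAC, the paired Smad box that contains it, TGANTCA, bound by AP-1, TTCNNNGAA, bound by STAT factors, and TGTGGT, bound by Runx factors. The 250 bases printed held 1 match, a Smad box on the opposite strand 222 to 219 bases before the start, and the Bmp4 window of 300 bases held 2. A Smad box was in 88.0% of the 32817 windows, so its presence in this one is usual. The Bmp4 window held none of the other 5 motifs, which occurred in 11.9% (GGCGCC), 0.213% (GTCTAGAC), 7.81% (TGANTCA), 8.29% (TTCNNNGAA) and 16.8% (TGTGGT) of windows. Of the other tested members, the windows of Bmpr1a and Bmpr2 each held 1 GGCGCC and that of Acvr1 held none, and none of the 3 held GTCTAGAC, TGANTCA, TTCNNNGAA or TGTGGT. Of the 250 bases before these starts, 141 in Bmpr1a and all 250 in Bmpr2 and Acvr1 lay in the gene's own GENCODE exons. Matches in these windows are therefore not shown to lie upstream of the gene. A match describes the letters of a window and not a bound site. The 250 bases before the start were 63.2% G or C for Bmp4, 78.8% for Bmpr1a, 64.0% for Bmpr2 and 85.6% for Acvr1. The median over all windows was 52.4%.

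**Figure D1:**
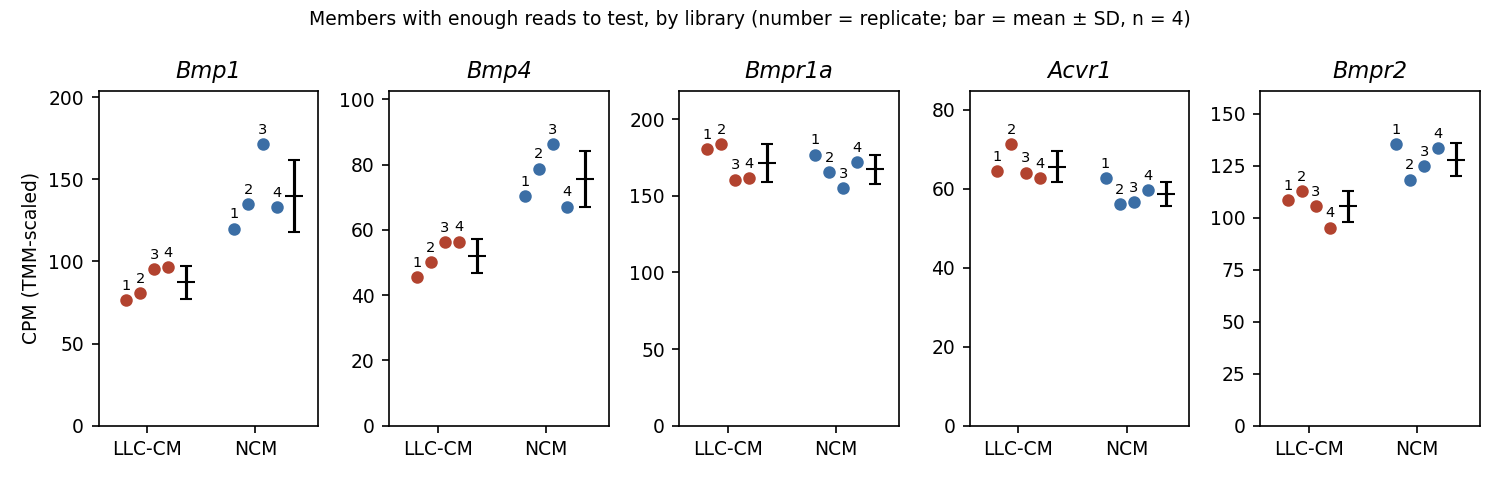
CPM of the 5 tested members in each library (vertical axes start at 0; numbers are replicates, and the bar beside each group is the mean ± SD, n = 4). Bmp1, Bmp4 and Bmpr2 lie lower in every LLC-CM library than in any NCM library, Bmpr1a overlaps between the groups, and Acvr1 is separated by a margin too small to see.

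The protease Bmp1 was also lower in LLC-CM. Bmp1 (ENSMUSG00000022098, chromosome 14, 70474557 to 70520260, minus strand) had 76.5, 80.7, 95.4 and 96.5 CPM in LLC-CM replicates 1 to 4, against 119.8, 134.9, 171.5 and 133.2 CPM in NCM replicates 1 to 4. The groups did not overlap, and NCM replicate 3 stood highest. Bmp1 averaged 87.3 ± 10.2 CPM in LLC-CM and 139.9 ± 22.2 CPM in NCM (SD, n = 4 each). Its log2 fold change was -0.68 ± 0.11 (SE, edgeR, adjusted p = 2e-04), 1.60-fold lower in LLC-CM, and 15.1% of tested genes had a larger absolute log2 fold change. The table counts the gene as a whole, so the short and long protein forms that Bmp1 encodes were not separated.

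Bmp1 and Bmp4 stood in a similar proportion to each other in all 8 libraries. The ratio of their TPM values (reads per counted base of a gene, scaled to the same sum in each library) was 0.995, 0.953, 1.003 and 1.013 in LLC-CM replicates 1 to 4, against 1.009, 1.015, 1.176 and 1.174 in NCM replicates 1 to 4. The groups overlapped in this ratio, at 0.991 ± 0.027 in LLC-CM and 1.09 ± 0.094 in NCM (SD, n = 4 each). A ratio near 1 rests on the counted Bmp1 length of 3757 bases. The same reads divided by the 8870 exonic bases of GENCODE M21 would give 0.420 ± 0.011 in LLC-CM and 0.463 ± 0.040 in NCM (SD, n = 4 each). Reads from the additional bases are not in these counts, so counting over the longer model could give other values. Within groups the levels of Bmp1 and Bmp4 also stood in similar order, with LLC-CM replicates 3 and 4 above 1 and 2 for both genes and NCM replicate 3 highest for both. LLC-CM replicates 1 or 2 differed from 3 or 4 over all genes by a chi-square of their counts of 15.5 to 37.4 per degree of freedom, where 1 is sampling noise, against 14.2 between 1 and 2 and 10.6 between 3 and 4. The part of that split in the order of the members was not tested.

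The type I receptor Bmpr1a, the receptor with the highest level per length among the members, did not pass the threshold. Bmpr1a (ENSMUSG00000021796, chromosome 14, 34410734 to 34503341, minus strand) is a type I receptor for Bmp2 and Bmp4. It had 180.3, 183.8, 160.5 and 161.4 CPM in LLC-CM replicates 1 to 4, against 176.9, 165.3, 155.0 and 171.9 CPM in NCM replicates 1 to 4. The groups overlapped. Within each group the pair of libraries highest in Bmp4 (LLC-CM replicates 3 and 4, NCM replicates 2 and 3) was the pair lowest in Bmpr1a. Bmpr1a averaged 171.5 ± 12.3 CPM in LLC-CM and 167.3 ± 9.49 CPM in NCM (SD, n = 4 each). Its log2 fold change was 0.04 ± 0.06 (SE, edgeR, adjusted p = 0.71), with a 95% interval of -0.10 to 0.17. Its exons share 290 bases (4.57%) with the antisense gene Gm17110. Without NCM replicate 3 the estimate was -0.0074, with an adjusted p of 0.95.

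Acvr1 had slightly more reads in LLC-CM, a difference at the edge of the test. Acvr1 (ENSMUSG00000026836, chromosome 2, 58388644 to 58567157, minus strand) is a type I receptor shared by BMPs and, as a complex partner, activins, and activating mutations of its human counterpart cause fibrodysplasia ossificans progressiva, a disease of ectopic bone. It had 64.5, 71.4, 64.1 and 62.7 CPM in LLC-CM replicates 1 to 4, against 62.7, 56.0, 56.5 and 59.7 CPM in NCM replicates 1 to 4. The lowest LLC-CM library and the highest NCM library had the same value to 3 digits, so the groups were separated by next to nothing, and in TPM they overlapped (35.8 as the lowest in LLC-CM, 35.9 as the highest in NCM). Acvr1 averaged 65.6 ± 3.89 CPM in LLC-CM and 58.7 ± 3.07 CPM in NCM (SD, n = 4 each). Its log2 fold change was 0.16 ± 0.06 (SE, edgeR, adjusted p = 0.060, 95% interval 0.03 to 0.29). Its adjusted p ran from 0.040 to 0.18 over 18 other settings and passed the threshold in 2 of them, upper-quartile factors (0.040) and a filter of 1 CPM in 4 libraries (0.047).

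The type II receptor Bmpr2 was modestly lower in LLC-CM. Bmpr2 (ENSMUSG00000067336, chromosome 1, 59763400 to 59879014, plus strand) activates the type I receptors in the complex, and loss of its function in humans is linked to heritable pulmonary arterial hypertension. It had 108.6, 112.7, 105.5 and 95.2 CPM in LLC-CM replicates 1 to 4, against 135.5, 118.4, 124.7 and 133.4 CPM in NCM replicates 1 to 4. The groups did not overlap. Bmpr2 averaged 105.5 ± 7.44 CPM in LLC-CM and 128.0 ± 7.93 CPM in NCM (SD, n = 4 each). Its log2 fold change was -0.28 ± 0.07 (SE, edgeR, adjusted p = 0.0033), 1.21-fold lower in LLC-CM, and 40.1% of tested genes had a larger absolute log2 fold change. With Bmp1, Bmp4, Acvr1 and Bmpr2, 4 of the 5 tested members had groups that did not overlap in CPM, beside 36.3% of all tested genes. Acvr1 is in this count by next to nothing, and its groups overlapped in TPM.

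Compared per length, the members did not stand in the same order in the 2 groups. In LLC-CM the order was Bmpr1a (73.3 ± 3.10 TPM), Bmp4 (63.8 ± 8.12 TPM), Bmp1 (63.3 ± 9.24 TPM), Acvr1 (36.9 ± 1.08 TPM) and Bmpr2 (15.9 ± 0.89 TPM; SD, n = 4). In NCM it was Bmp1 (104.4 ± 15.0 TPM), Bmp4 (95.3 ± 9.27 TPM), Bmpr1a (74.0 ± 5.38 TPM), Acvr1 (34.2 ± 2.04 TPM) and Bmpr2 (19.99 ± 1.42 TPM; SD, n = 4). Bmp1 and Bmp4 did not differ beyond their spread in either group, and in LLC-CM the libraries of Bmp4 and Bmp1 overlapped those of Bmpr1a. In NCM every Bmp4 value lay above every Bmpr1a value, and Acvr1 and Bmpr2 stood apart from their neighbours in both groups. The place of Bmpr2 rests on its counted length of 17983 bases, and in CPM Bmpr2 stood above Acvr1 in both groups. The place of Bmp1 rests on the counted length of 3757 bases. The same reads divided by the 8870 exonic bases of GENCODE M21 would put Bmp1 at 26.8 ± 3.92 TPM in LLC-CM and 44.2 ± 6.34 TPM in NCM (SD, n = 4 each). That would be below Acvr1 in LLC-CM. Reads from the additional bases are not in these counts, so the place of Bmp1 under the longer model is not known.

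**Figure D2:**
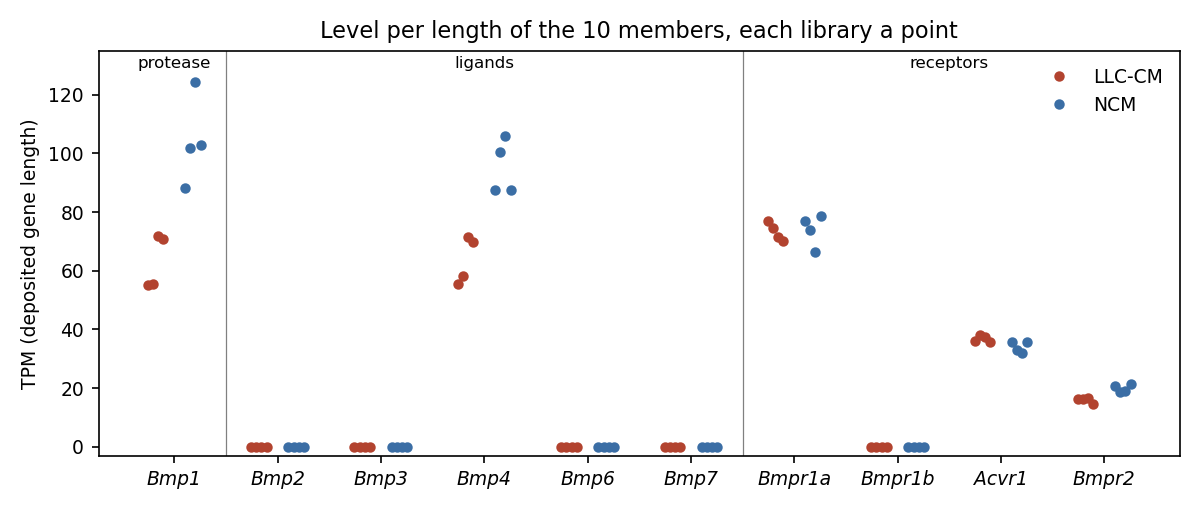
TPM of the 10 members, computed with the deposited gene lengths, in each library (points; vertical axis in TPM, linear). Bmp1 and Bmp4 stand above Bmpr1a in every NCM library, while Bmp2, Bmp3, Bmp7 and Bmpr1b are at 0 in all libraries and Bmp6 is at or near 0.

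Ratios within a library do not depend on how libraries are scaled, and they are given as descriptions without a test. There were 0.721, 0.779, 1.001 and 0.997 Bmp4 TPM per Bmpr1a TPM in LLC-CM replicates 1 to 4, against 1.13, 1.36, 1.59 and 1.12 in NCM replicates 1 to 4. The groups did not overlap, at 0.875 ± 0.146 in LLC-CM and 1.30 ± 0.22 in NCM (SD, n = 4 each). The ratio of Acvr1 to Bmpr2 was 2.21, 2.36, 2.26 and 2.45 in LLC-CM replicates 1 to 4, against 1.72, 1.76, 1.69 and 1.67 in NCM replicates 1 to 4. These groups stood well apart, at 2.32 ± 0.11 in LLC-CM and 1.71 ± 0.043 in NCM (SD, n = 4 each).

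The 3 receptors together held 126.2 ± 4.11 TPM in LLC-CM and 128.2 ± 8.52 TPM in NCM (SD, n = 4 each), ranges that overlapped. Within that sum Bmpr1a took 58.1 ± 1.03% in LLC-CM and 57.7 ± 0.90% in NCM. Acvr1 took 29.3 ± 0.90% in LLC-CM and 26.7 ± 0.44% in NCM, and Bmpr2 took 12.6 ± 0.45% in LLC-CM and 15.6 ± 0.53% in NCM. The sizes of these shares rest on the counted lengths, 17983 bases for Bmpr2 and 4829 bases for Acvr1. The lowest Acvr1 share in LLC-CM was 27.9%, against a highest of 27.2% in NCM. The highest Bmpr2 share in LLC-CM was 13.2%, against a lowest of 14.9% in NCM, so neither share overlapped between the groups. As parts of the same sum the shares depend on each other, so these are not separate results. Acvr1 itself did not pass, and its TPM overlapped between the groups.

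**Figure D3:**
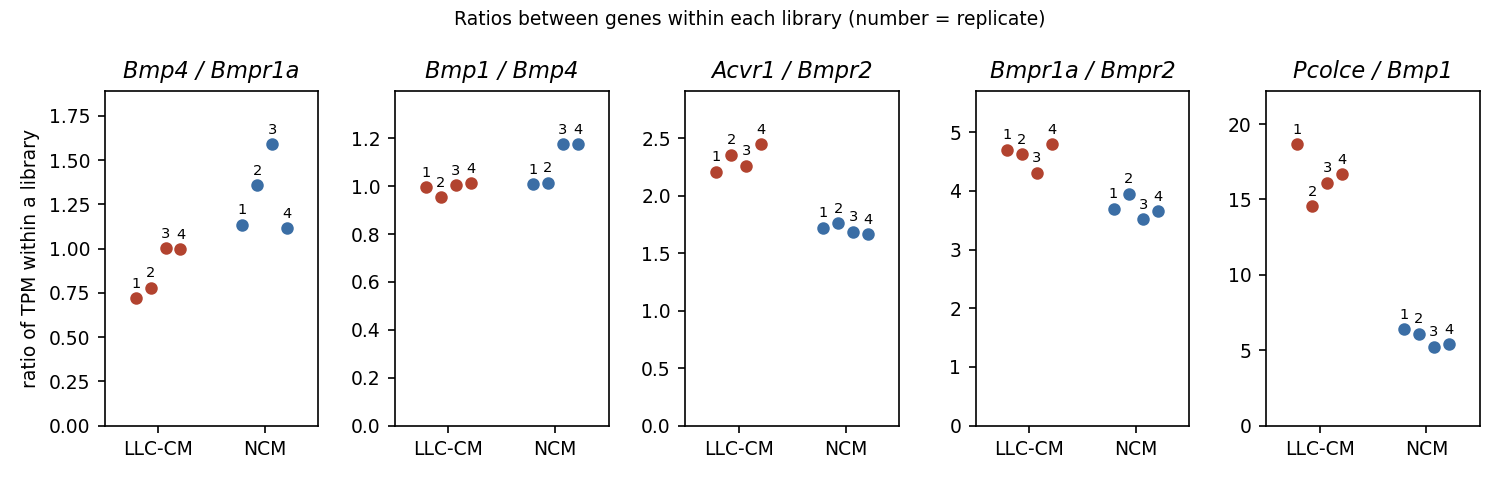
Ratios of TPM between pairs of genes within each library (vertical axes start at 0; numbers are replicates). Bmp4 to Bmpr1a is lower, and Acvr1 to Bmpr2, Bmpr1a to Bmpr2 and Pcolce to Bmp1 are higher, in every LLC-CM library than in any NCM library, while Bmp1 to Bmp4 overlaps.

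The other genes of the pathway moved in both directions. The 73 further genes in 7 lists were chosen by their known roles, but with earlier results of these data known. The part of that choice in the counts was not tested. Of the 73 genes, 52 were tested, 14 were higher and 18 lower in LLC-CM, and 20 did not pass. Among those tested 61.5% were called, beside 36.9% of all tested genes (18.8% higher and 18.1% lower). The same shares of all tested genes stand beside the counts of each list below. Their median log2 fold change was -0.09, against 0.01 over all tested genes. Of the 21 not tested, 8 had 0 counts in all libraries. The sums of all 6 marker lists given above, osteoblast markers included, also differed between the groups without overlap, and their part in these counts was not tested.

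Among 16 other BMP, GDF and activin ligands 6 were tested, 2 were lower and 1 higher in LLC-CM. Bmp8a, a close relative of Bmp7, averaged 2.12 ± 0.61 CPM in LLC-CM and 6.46 ± 1.17 CPM in NCM (SD, n = 4 each), a log2 fold change of -1.59 ± 0.20 (SE, edgeR, adjusted p = 1.4e-05). Inhbb, an activin subunit, fell by 0.41 ± 0.14 (log2), and Gdf11, a ligand of axial patterning, rose by 0.51 ± 0.07. Per length, Gdf11 stood at 28.2 TPM in LLC-CM and 20.4 TPM in NCM, against 63.8 TPM in LLC-CM and 95.3 TPM in NCM for Bmp4.

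Of 12 further receptors, co-receptors and a decoy receptor 9 were tested, 3 were higher and 2 lower in LLC-CM. Tgfbr3, betaglycan, a co-receptor that binds TGF-beta and several BMPs, averaged 207.3 ± 3.78 CPM in LLC-CM and 104.9 ± 6.67 CPM in NCM (SD, n = 4 each), a log2 fold change of 0.98 ± 0.06 (SE, edgeR, adjusted p = 3.4e-09). Rgma, a membrane-anchored BMP co-receptor, rose by 0.74 ± 0.14. Bambi, a decoy receptor without a kinase domain, fell to 4.82 ± 0.79 CPM in LLC-CM, against 13.5 ± 1.31 CPM in NCM (SD, n = 4 each).

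Genes of the Smad mediators and their inhibitors were mostly lower in LLC-CM. All 8 on the list were tested, 6 were lower, 1 was higher and 1 did not pass. Of all tested genes 18.1% were called lower and 18.8% higher. The median log2 fold change of the list was -0.41, against 0.01 over all tested genes. Smad1, which BMP type I receptors phosphorylate, averaged 17.8 ± 1.97 CPM in LLC-CM and 30.2 ± 1.65 CPM in NCM (SD, n = 4 each), a log2 fold change of -0.76 ± 0.09 (SE, edgeR, adjusted p = 5.8e-06). Smad5, its close relative, averaged 98.8 ± 3.25 CPM in LLC-CM and 128.7 ± 5.03 CPM in NCM, and Smad4, the common partner, 60.2 ± 3.38 CPM in LLC-CM and 81.2 ± 1.42 CPM in NCM (SD, n = 4 each). The remaining Smad genes were named after their values were seen. Smad9, the third BMP receptor substrate, fell by 0.61 ± 0.10 on the log2 scale, Smad6, an inhibitor of BMP Smads, fell by 1.09 ± 0.17, and Smurf2, a ubiquitin ligase, fell by 0.31 ± 0.05. Smurf1, a ubiquitin ligase that targets Smad1 and Smad5, rose by 0.31 ± 0.06, and the inhibitor Smad7 had a log2 fold change of -0.08 ± 0.16 (adjusted p = 0.74).

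Secreted antagonists and modulators were split, with 4 higher and 4 lower of 15 tested, from a list of 19. Chrd, chordin, the BMP antagonist that Bmp1 cleaves, averaged 7.58 ± 0.83 CPM in LLC-CM and 21.1 ± 1.64 CPM in NCM (SD, n = 4 each), a log2 fold change of -1.47 ± 0.10 (SE, edgeR, adjusted p = 2.4e-08). Bmper, a modulator that binds BMPs and chordin, fell by 2.16 ± 0.11. Chrdl1, Fst and Fstl1, also on the list, were named after their values were seen. Chrdl1 stood at 369.4 TPM in LLC-CM and 387.0 TPM in NCM (edgeR, adjusted p = 0.86). Fst stood at 296.3 TPM in LLC-CM and 298.7 TPM in NCM (edgeR, adjusted p = 0.74). Chrd was lower per length, at 3.54 TPM in LLC-CM and 10.1 TPM in NCM. Fstl1 rose by 1.17 ± 0.11. Htra1, a secreted serine protease known to dampen TGF-beta family signalling, averaged 972.4 ± 35.2 CPM in LLC-CM and 289.0 ± 14.1 CPM in NCM (SD, n = 4 each), a log2 fold change of 1.75 ± 0.07.

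Of 15 genes listed as BMP targets 14 were tested, 4 were higher and 5 lower in LLC-CM, and 5 did not pass. Sp7, a transcription factor required for osteoblast formation, had a log2 fold change of -1.20 ± 0.08 (SE, edgeR, adjusted p = 2.2e-08) and Dlx5, a homeobox factor of osteoblasts, fell by 1.01 ± 0.09. Bambi, described among the receptors, is also on this list. The 4 higher targets, Id1 and Id3 were named after their values were seen. Id3, a relative of Id2 and at a higher level than Id1 or Id2, did not pass. It averaged 67.9 ± 8.50 CPM in LLC-CM and 78.1 ± 12.5 CPM in NCM (SD, n = 4 each). Its log2 fold change was -0.20 ± 0.11 (SE, edgeR, adjusted p = 0.18). Id2, an inhibitor of helix-loop-helix factors, averaged 31.5 ± 2.25 CPM in LLC-CM and 21.7 ± 1.04 CPM in NCM (SD, n = 4 each), a log2 fold change of 0.54 ± 0.08 (SE, edgeR, adjusted p = 4.5e-05). Atoh8, a transcription factor, rose by 0.89 ± 0.11, Msx1, a homeobox factor, by 0.66 ± 0.16 and Nog, the BMP antagonist noggin, by 1.39 ± 0.39 to a low level of 0.726 CPM in LLC-CM, against 0.270 CPM in NCM. Id1, a relative of Id2 and a common readout of BMP Smads, averaged 2.20 ± 0.24 CPM in LLC-CM and 2.19 ± 0.44 CPM in NCM (SD, n = 4 each, edgeR, adjusted p = 0.99), with a 95% interval of its log2 fold change of -0.40 to 0.41.

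The partners of Bmp1 in collagen processing moved unequally. Pcolce, which enhances procollagen cleavage by Bmp1, averaged 1462 ± 192 CPM in LLC-CM and 815.7 ± 79.2 CPM in NCM (SD, n = 4 each), a log2 fold change of 0.84 ± 0.10 (SE, edgeR, adjusted p = 7.6e-06). Pcolce2, a second enhancer, fell by 1.10 ± 0.11. The ratio of Pcolce to Bmp1 was 16.5 ± 1.70 in LLC-CM and 5.78 ± 0.55 in NCM (TPM, SD, n = 4 each), and the groups did not overlap. The same Bmp1 reads divided by the longer length would give 39.0 ± 4.02 in LLC-CM and 13.7 ± 1.30 in NCM. The comparison between the groups is then the same by construction, and reads from the additional bases are not counted. The related proteases Tll1 and Tll2 were not tested, Tll2 having 0 counts in all libraries.

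Proprotein convertases cut BMP precursors into mature ligands, and 3 of the 4 listed were tested. Pcsk6, a convertase of TGF-beta family precursors, averaged 2.39 ± 0.63 CPM in LLC-CM and 72.0 ± 10.8 CPM in NCM (SD, n = 4 each), a log2 fold change of -4.89 ± 0.16 (SE, edgeR, adjusted p = 3.9e-11). Furin, a widely expressed convertase, rose by 0.32 ± 0.09 (log2, adjusted p = 0.014), and Pcsk7 had a log2 fold change of -0.0043 ± 0.076 (adjusted p = 0.97). Pcsk5 had 0 counts in all 8 libraries.

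**Figure D4:**
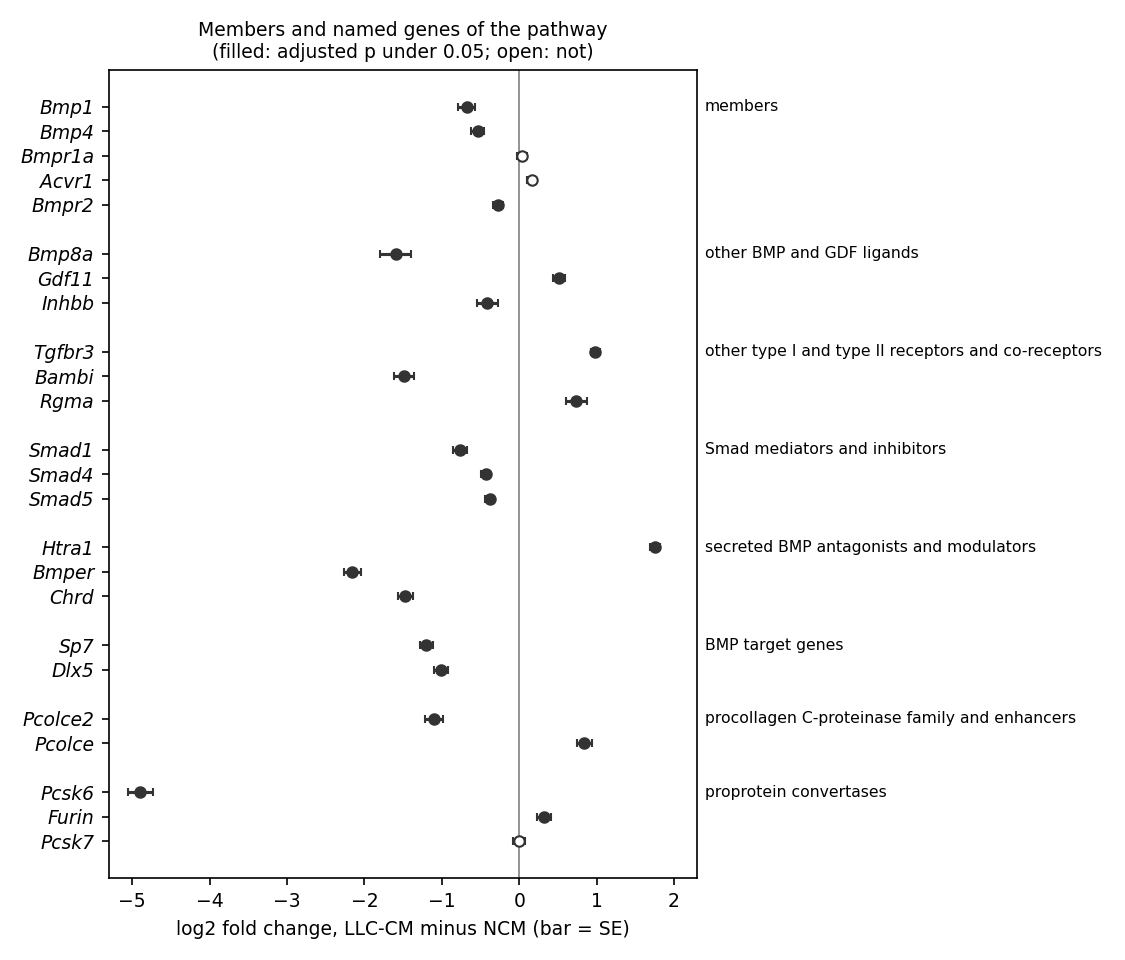
Log2 fold change, LLC-CM minus NCM, of the 5 tested members and of the named genes of each pathway list (horizontal axis; bars are SE; filled points passed an adjusted p of 0.05 in edgeR, open points did not). The members lie between -0.68 and 0.16, and the named pathway genes run from Pcsk6 at -4.89 to Htra1 at 1.75. All 5 tested members are shown, but the pathway genes were picked by smallest adjusted p in each list. The 2 spans therefore cannot be compared.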

How the data were processed

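The deposited table holds raw read counts per gene for 8 libraries, with a gene length in bases that the authors also deposited. The submitters' processing notes name the mm10 build, featureCounts, STAR and CASAVA, whose versions are not given in the sources used here. Per the labels' protocols, libraries were poly(A)-selected from 200 ng of RNA with 12 PCR cycles and a kit that does not mark strand. Library totals ran from 27264212 to 35573953 counts.

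Columns were matched to samples by title. Genes kept by filterByExpr were scaled with TMM factors and tested by quasi-likelihood in edgeR 4.0.16 under R 4.3.3 (with limma 3.58.1), in 1 model fitted to all 14991 tested genes and adjusted by Benjamini-Hochberg at 0.05, with no covariate. TPM used the deposited lengths. The fit was tested on simulated data. Any 2 libraries of a group differed beyond sampling noise (chi-square at least 7.07 per degree of freedom). Exon overlaps came from GENCODE M21 and promoter windows from RefSeq (GRCm38.p6), which held 4 of the 5 tested members. Members' transcripts were compared with all others by blastn 2.17.0, and the matches of at least 200 bases at 90% identity were those of overlapping genes. The alternatives tried were other scalings (upper quartile, DESeq2 size factors, library size alone), other filters (none, or 1 CPM in 4 libraries), other tests (limma-voom, DESeq2 1.42.0), a block for replicate number or a term for odd and even numbers, an adjusted p of 0.01, and each library left out in turn.

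The members and lists were chosen with earlier results of these data known. Named genes are all members and, per pathway list, the 3 tested genes with the smallest adjusted p, or where none passed also the one most abundant per length. Smad6, Smad7, Smad9, Smurf1, Smurf2, Chrdl1, Fst, Fstl1, Id1, Id2, Id3, Atoh8, Msx1, Nog, Tll1, Tll2 and Pcsk5 were named after their values were seen.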

Additional observations from a re-analysis of the deposited data

How the results depend on the processing

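Bmp1, Bmp4 and Bmpr2 stayed lower in LLC-CM and past the threshold in each of the 18 other settings, with log2 fold changes of -0.76 to -0.57, -0.60 to -0.47 and -0.32 to -0.24 and adjusted p of at most 0.0026, 0.0012 and 0.011. The number of members called higher was 0, except for 1, Acvr1, with upper-quartile factors and with a filter of 1 CPM in 4 libraries (1 each). Bmpr1a passed in none of the 18 settings and changed sign without NCM replicate 3, its values with 1 library left out running from -0.0074 to 0.057. Over the settings, 12 to 16 other pathway genes were higher and 16 to 19 lower, and 3946 to 5737 of all genes were called. With the replicate number as a block, 3 members were lower and 0 higher and 5473 genes were called. Deviations of same-numbered libraries from their group means had correlations across 14991 genes of 0.068, -0.044, 0.20 and -0.027. Differently numbered libraries had -0.23 to 0.18, so the value for replicates numbered 3 was the highest of all. With 4 libraries per group these values cannot tell whether the numbers pair the samples. No scaling moved the median of all genes by over 0.013 on the log2 scale. Bmp2, Bmp3, Bmp6, Bmp7 and Bmpr1b were at or under 3 counts in each group and gave no comparison at this depth.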
